A study of Homo sapiens with 9 samples.

Results

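Genes of endoplasmic reticulum (ER) translocation and early vesicle transport were examined by RNA-seq in MDA-MB-231 cells exposed to 2-deoxy-D-glucose (2-DG), a glucose analog that blocks glycolysis and also interferes with N-glycosylation. The members were the 54 genes, chosen by name, of signal recognition, the translocon, signal peptidase, the COPII and COPI coats and the cargo receptors, out of 61552 genes listed. Each of the 54 had a value in every library, and all 54 passed the filter on low values that kept 16569 genes for testing. MDA-MB-231 is an established human triple-negative breast cancer cell line, labelled WT, and a single cell line limits the groups as a model. The cells were cultured in DMEM with fetal serum and harvested after 24 h without 2-DG (control), with 10 mM 2-DG or with 20 mM 2-DG, with 3 libraries in each group. The labels number these libraries as replicates without saying that they came from separate cultures, so the p-values measure the spread between these libraries, which may be technical. The comparison asked which genes differed in level after 2-DG, and the data used here hold no measure of glycolysis or lactate. Lactate-treated cells of the same study were not analysed here.

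Proteins bound for secretion or for membranes carry a signal sequence that the signal recognition particle (SRP) binds while the ribosome is still translating, and the SRP receptor docks the complex at the ER membrane. The Sec61 channel, helped by TRAM1, the TRAP complex and SEC63, passes the chain into the ER, where signal peptidase removes the signal sequence. Folded cargo leaves in COPII-coated vesicles, and COPI-coated vesicles together with the KDEL receptors return escaped ER residents from the Golgi. In mammalian cells many of these genes belong to the unfolded protein response, which ER stress starts.

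The libraries held 30974968 to 40843638 reads by the totals recovered from the FPKM values (fragments per kilobase of a gene and per unit of library depth). The 3 least covered members, SEC61A2, SRP19 and BET1, had 248, 299 and 445 reads in their lowest library. Of the cell identity markers, VIM stood at 243 to 313 FPKM, and CD44, AXL, CAV1 and MSN were above 52.9 FPKM in every library, whereas SPARC, listed as high in this line, stayed at or under 0.215. ESR1 and PGR reached at most 0.00830 and 0.0204 FPKM, and ERBB2 lay at 5.53 to 9.11. Among the 5 luminal epithelial markers KRT8 (80.5 to 153 FPKM) and KRT18 (126 to 164 FPKM) were high, and CDH1 stayed at or under 0.417. The defining leukocyte markers PTPRC and CD3E stayed at or under 0.0327 FPKM, and CD14 lay at 1.14 to 3.83. The endothelial markers VWF and CDH5 stayed at or under 0.0368 FPKM, and PECAM1 lay at 0.826 to 1.95. No marker was called higher at either dose. KRT8, CAV1, ERBB2, CDH1 and CD44 were called lower at both doses, with log2 fold changes of -0.62, -0.62, -0.51, -0.38 and -0.26 at 10 mM and -0.73, -0.71, -0.54, -0.35 and -0.30 at 20 mM. GATA3, CD14 and PECAM1 were called lower at 20 mM alone, at -0.39, -0.71 and -0.51, and the part of these markers in the results was not tested.

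After 2-DG the members took a larger share of the reads. Together they held 0.725, 0.744 and 0.756% of the library totals in the control libraries. The shares were 0.972, 0.922 and 0.957% at 10 mM and 0.995, 0.987 and 0.973% at 20 mM, so that every 2-DG library lay above every control library. The means were 0.742% ± 0.0157 (SD, n = 3) in control, 0.950% ± 0.0259 at 10 mM and 0.985% ± 0.0108 at 20 mM. FPKM values are shares of a library, and in bulk RNA a change in the number of cells of a kind cannot be told apart from a change in RNA per cell.

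Each member was then compared with control in a limma fit over all 16569 genes, where a call is an adjusted p under 0.05. At 10 mM, 29 of the 54 members were higher and 2 were lower, where 12.1% of all genes tested were higher and 17.5% were lower. At 20 mM the counts were again 29 higher and 2 lower, against 15.4% and 21.6% of all genes tested. The members' median change was 0.26 on the log2 scale at the lower dose and 0.29 at the higher, whereas the medians of all genes were -0.011 and -0.021. Both comparisons share the 3 control libraries. Each gene's SE comes from a spread pooled over all groups, so it is the same at both doses and is not the spread of either dose. Replicates agreed less at 10 mM, with Pearson's r of 0.989 to 0.994, than at 20 mM, with 0.996. All the fold changes given are differences in log2(FPKM + 1), which understates changes of low genes. By mean FPKM, SRP19 stood at percentile 34.9 of the genes tested, and the other members from 50.9 (SEC61A2) to 98.4 (SEC61A1 and KDELR1). The shares of all genes are thus not matched to the members for level.

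The libraries of a dose lay wholly above those of control for 28 members at 10 mM and 37 at 20 mM, and wholly below for 2 at each dose. Over all genes tested the libraries did not overlap for 17.8% (higher) and 22.7% (lower) at 10 mM, and for 23.3% and 29.9% at 20 mM. Under the study's rule for differentially expressed genes (DEGs), an unadjusted p under 0.05 with an absolute log2 fold change over 1, TRAM1 and SEC11C were higher at 10 mM, SRPRB joined them at 20 mM, and no member was lower. The same rule took 0.579% of all genes as higher and 1.16% as lower at 10 mM, and 0.966% and 1.96% at 20 mM. With an adjusted p under 0.05 and a fold change over 1.5, 8 members were higher and 0 lower at 10 mM, against 2.81% and 4.54% of all genes tested, and 14 and 0 at 20 mM, against 4.02% and 6.61%.

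**Figure D1:**
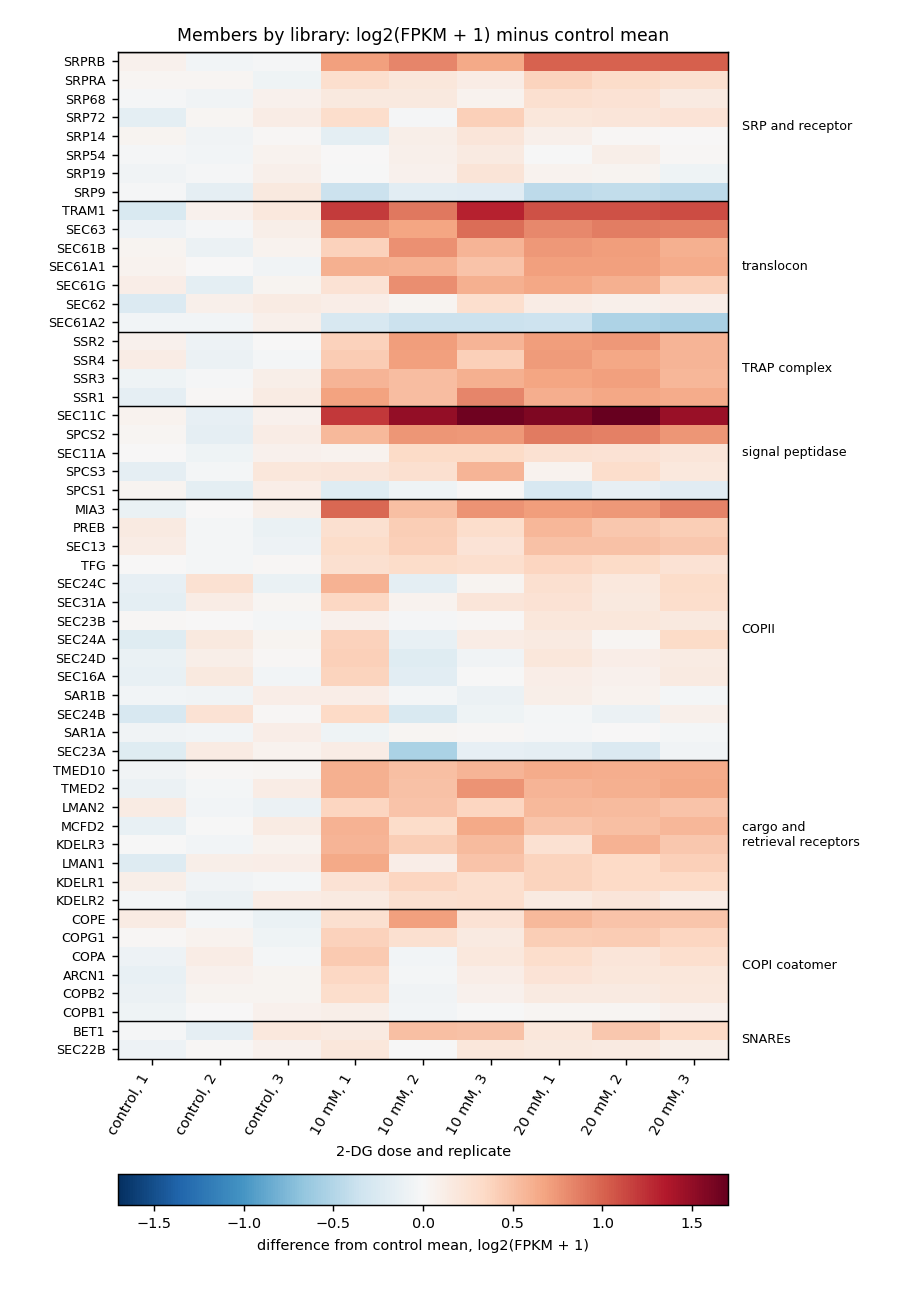
Heatmap of the 54 members (rows, grouped by role) in the 9 libraries (columns, dose and replicate), coloured by log2(FPKM + 1) minus the mean of the 3 control libraries. The translocon, TRAP, signal peptidase and cargo receptor rows hold most of the higher values, SEC11C is the highest, and SEC61A2 and SRP9 are lower in all 6 libraries with 2-DG.

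The promoters were searched for motifs linked to the unfolded protein response, in RefSeq sequence (GRCh38.p14) from 250 bases before to 50 bases after the start, which 49 of the 54 members had in the table used; SRPRA, TRAM1, SPCS1, SEC24D and KDELR2 were not matched. The ER stress response element, read as CCAAT, 9 bases of any kind and CCACG on either strand, was in 0 of the 49 and in 0.0806% of all 27305 promoters. Its second form, ATTGG, 1 base of any kind and CCACG, was in 0 of the 49 and in 0.0549% of all. The 8 letters TGACGTGG or their reverse complement CCACGTCA, the core of the unfolded protein response element, were in 9 of the 49 (18.4%) and in 0.795% of all promoters. Its reverse complement opens with the CCACG that closes the other motifs, so a base run can count for more than one of them. The 9 were SRP19, SEC62, SEC23A, SEC24A, SEC16A, KDELR3, COPA, COPB1 and COPB2, the last with 2 matches. With only the 250 bases before the start, 6 of 49 (12.2%) held it, against 0.667% of all. The 27305 promoters were not limited to the genes tested, nor matched to the members for level or base composition. The 5 windows that follow lie wholly before the start and are shown because the genes beside these letters are mostly members that did not pass the test; each is written 5′ to 3′ on the gene's strand, with the match in capitals:
SRP19, chr5:112861155-112861202, plus strand: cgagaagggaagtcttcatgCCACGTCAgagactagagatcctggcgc
SEC24A, chr5:134648586-134648633, plus strand: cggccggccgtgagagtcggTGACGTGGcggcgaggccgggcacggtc
KDELR3, chr22:38468030-38468077, plus strand: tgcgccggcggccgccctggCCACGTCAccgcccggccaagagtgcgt
COPB1, chr11:14499832-14499879, minus strand: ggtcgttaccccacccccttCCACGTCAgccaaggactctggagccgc
COPB2, chr3:139389816-139389863, minus strand: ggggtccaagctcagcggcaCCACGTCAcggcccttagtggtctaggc

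Of the 9 genes with the letters, KDELR3 alone was called higher, at each dose, and none was lower, and their medians on the log2 scale were 0.11 at the lower and 0.11 at the higher dose. Of the 40 members whose promoter lacked them, 25 were higher at 10 mM and 26 at 20 mM, and 2 were lower at each dose, with medians of 0.34 and 0.39. A match describes letters only, and the difference between these sets was not tested.

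Of the 8 genes of the SRP and its receptor, 2 were higher and 1 lower at 10 mM, and 3 higher and 1 lower at 20 mM. SRPRB, the membrane-anchored beta subunit of the SRP receptor (chr3:133784033-133825772, plus strand, GRCh38), was measured at 9.63, 8.77 and 8.91 FPKM in the control libraries, 15.4, 17 and 14.8 at 10 mM and 19.2, 19.2 and 19.4 at 20 mM. The 3 groups did not overlap, and each 20 mM library exceeded each 10 mM library. Its log2 fold changes were 0.73 (SE 0.066, adjusted p = 4.58e-05) at 10 mM and 1.00 (SE 0.066, adjusted p = 3.55e-06) at 20 mM. SRPRA, the alpha subunit that contacts SRP, rose from 75.7, 75.6 and 69.8 FPKM in the control libraries to 89.7, 84.2 and 80.8 at 10 mM and 96, 91.3 and 89.2 at 20 mM. Both doses lay above control, by 0.20 (SE 0.061, adjusted p = 0.0325) at 10 mM and 0.32 (SE 0.061, adjusted p = 0.00272) at 20 mM.

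SRP9, which forms with SRP14 the part of the particle that slows elongation (chr1:225777813-225790466, plus strand), went the other way. It read 49.2, 45.2 and 56.5 FPKM in the control libraries, 38.6, 43.9 and 43.6 at 10 mM and 36.4, 37.2 and 36.7 at 20 mM. All 6 libraries with 2-DG lay below all 3 control libraries. The log2 fold changes of SRP9 were -0.25 (SE 0.083, adjusted p = 0.0458) at 10 mM and -0.44 (SE 0.083, adjusted p = 0.00258) at 20 mM, and the annotation holds 1 SRP9 pseudogene that could share its reads. SRP14, its partner, had 100.03 ± 3.97 FPKM (SD, n = 3) in control and 103 ± 3.22 at 20 mM, with a log2 fold change of 0.038 (SE 0.088, adjusted p = 0.773), and the annotation holds 4 SRP14 pseudogenes. SRP68, another protein of the particle, was called only at 20 mM, at 0.23 (adjusted p = 0.015) after 0.13 (adjusted p = 0.136) at 10 mM. SRP19, SRP54 and SRP72 did not pass at either dose, with log2 fold changes at 20 mM of 0.0083, 0.037 and 0.21. The 1470 exonic bases that SRP19 shares with ZRSR2P1 on its strand make its value uncertain.

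Most of the translocon changed, with 5 of its 7 genes higher and 1 lower at each dose. Its share of the library totals was 0.0906% ± 0.00159 (SD, n = 3) in control, 0.142% ± 0.00219 at 10 mM and 0.147% ± 0.00351 at 20 mM. TRAM1, a membrane protein beside the channel that helps many signal sequences enter, had 23.9, 30.3 and 32.6 FPKM in the control libraries, 66.7, 54.4 and 72.2 at 10 mM and 62, 61.9 and 62.9 at 20 mM. Every library with 2-DG lay above every control library. TRAM1 rose by 1.13 (SE 0.12, adjusted p = 0.00013) at 10 mM and 1.09 (SE 0.12, adjusted p = 0.000107) at 20 mM on the log2 scale. SEC63, which recruits the chaperone BiP to the channel, was measured at 7.91, 8.34 and 9.18 FPKM in the control libraries, 14.9, 14.1 and 17.2 at 10 mM and 15.6, 16.3 and 16.1 at 20 mM, with no overlap between control and 2-DG. It differed from control by 0.79 (SE 0.081, adjusted p = 9.82e-05) at 10 mM and 0.85 (SE 0.081, adjusted p = 4.15e-05) at 20 mM.

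SEC61A1 encodes the main channel-forming alpha subunit and had the highest FPKM of the translocon genes. Its values were 102, 98.7 and 93.6 FPKM in the control libraries, 149, 148 and 137 at 10 mM and 160.01, 159.6 and 152 at 20 mM. The control libraries all lay under the libraries with 2-DG, and SEC61A1 changed by 0.56 (SE 0.059, adjusted p = 0.000114) at 10 mM and 0.68 (SE 0.059, adjusted p = 2.15e-05) at 20 mM. SEC61A2, the second alpha gene (chr10:12129637-12169961, plus strand), was expressed far lower, at 3.16, 3.17 and 3.56 FPKM in the control libraries, 2.55, 2.33 and 2.32 at 10 mM and 2.35, 1.99 and 1.92 at 20 mM. Here every library with 2-DG lay below every control library. SEC61A2 had log2 fold changes of -0.34 (SE 0.09, adjusted p = 0.0184) at 10 mM and -0.48 (SE 0.09, adjusted p = 0.00242) at 20 mM, and 387 of its exonic bases lie opposite NUDT5. For SEC61B, the beta subunit, the values were 75.9, 68.7 and 76.4 FPKM in the control libraries, 96.6, 127 and 110.2 at 10 mM and 123, 121 and 112 at 20 mM, again without overlap. SEC61B rose by 0.58 (SE 0.095, adjusted p = 0.0015) at 10 mM and 0.68 (SE 0.095, adjusted p = 0.00043) at 20 mM. The gamma subunit SEC61G was higher by 0.54 (adjusted p = 0.0124) at 10 mM and 0.56 (adjusted p = 0.00844) at 20 mM. SEC62, the post-translational partner of SEC63, did not pass, at 0.15 (adjusted p = 0.305) and 0.11 (adjusted p = 0.435).

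**Figure D2:**
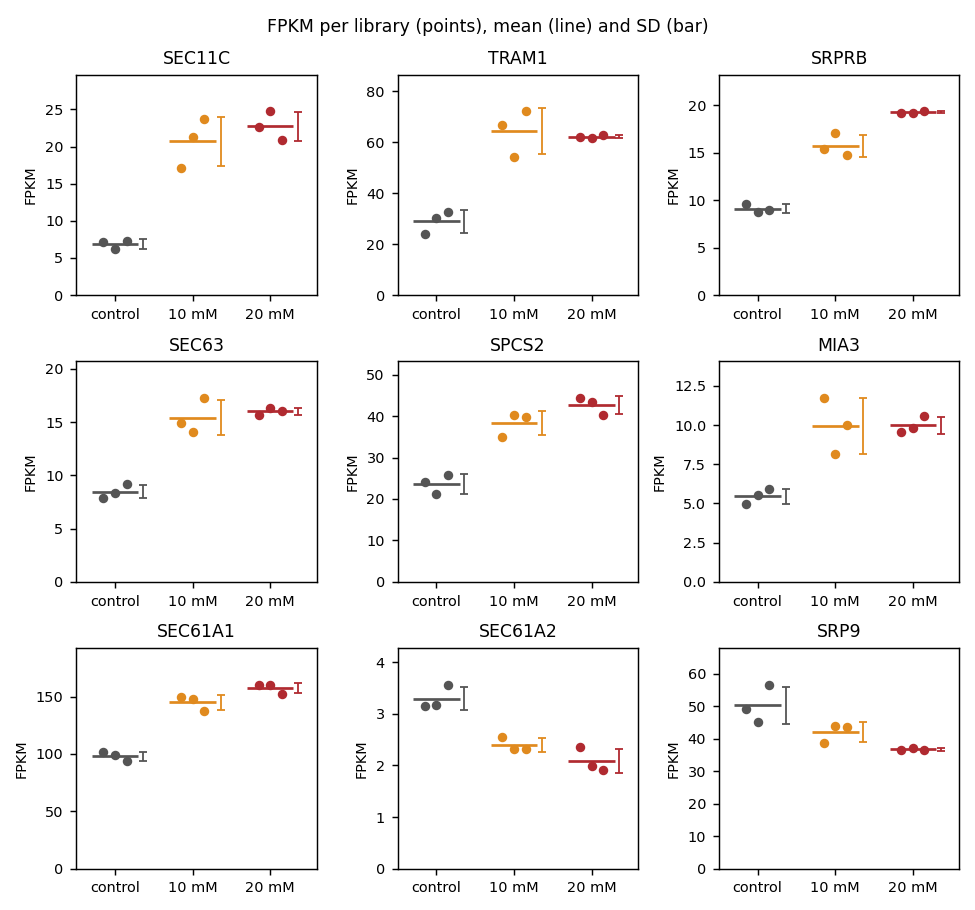
FPKM of 9 members in each library (points, replicates 1 to 3 from left to right in control, 10 mM and 20 mM 2-DG), with the group mean as a line and the SD as a bar, on axes that start at 0. In 7 genes all libraries with 2-DG lie above all control libraries, and in SEC61A2 and SRP9 they lie below.

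The TRAP complex, which sits beside the Sec61 channel and assists translocation and glycosylation, had 4 of 4 genes higher at each dose. SSR2 had 24.6, 21.9 and 23.5 FPKM in the control libraries, 31, 38.8 and 35.3 at 10 mM and 39, 39.7 and 35.4 at 20 mM. SSR3 was measured at 29.7, 30.8 and 33.9 FPKM in the control libraries, 47.6, 45.4 and 48.5 at 10 mM and 50.6, 51.3 and 46.8 at 20 mM. SSR4 stood at 27, 22.8 and 24.1 FPKM in the control libraries, 33.5, 40.5 and 33 at 10 mM and 41.1, 39.3 and 37.1 at 20 mM. In none of these genes did the control and 2-DG libraries overlap. The log2 fold changes of SSR2 were 0.56 (SE 0.085, adjusted p = 0.00103) at 10 mM and 0.68 (SE 0.085, adjusted p = 0.000226) at 20 mM. Those of SSR3 were 0.57 (SE 0.064, adjusted p = 0.000165) at 10 mM and 0.64 (SE 0.064, adjusted p = 5.36e-05) at 20 mM. SSR4 differed from control by 0.51 (SE 0.091, adjusted p = 0.00236) at 10 mM and 0.65 (SE 0.091, adjusted p = 0.000428) at 20 mM. SSR1 was higher by 0.68 (SE 0.09, adjusted p = 0.000431) at 10 mM and 0.64 (SE 0.09, adjusted p = 0.000443) at 20 mM, so the 4 log2 fold changes at 20 mM lay between 0.64 and 0.68.

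Of the 5 signal peptidase genes 3 were higher at each dose and none was lower. SEC11C, one of its alternative catalytic subunits (chr18:59139477-59158836, plus strand), had the largest log2 fold change of the 54 members at both doses. It was measured at 7.20, 6.16 and 7.31 FPKM in the control libraries, 17.1, 21.3 and 23.7 at 10 mM and 22.6, 24.8 and 20.9 at 20 mM. The lowest library with 2-DG was above the highest control library. SEC11C rose by 1.45 (SE 0.12, adjusted p = 2.06e-05) at 10 mM and 1.59 (SE 0.12, adjusted p = 6.94e-06) at 20 mM. SEC11A, the other catalytic subunit, had 12.5, 11.7 and 13 FPKM in the control libraries, 13, 15.7 and 15.7 at 10 mM and 15, 14.8 and 14.4 at 20 mM. Its control libraries overlapped those at 10 mM but not those at 20 mM, and the log2 fold changes were 0.24 (SE 0.079, adjusted p = 0.0475) at 10 mM and 0.24 (SE 0.079, adjusted p = 0.041) at 20 mM.

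SPCS2, an accessory subunit, was measured at 24.1, 21.1 and 25.8 FPKM in the control libraries, 35, 40.2 and 39.9 at 10 mM and 44.3, 43.3 and 40.3 at 20 mM, with no overlap between control and 2-DG. SPCS2 rose by 0.68 (SE 0.083, adjusted p = 0.000279) at 10 mM and 0.83 (SE 0.083, adjusted p = 5.29e-05) at 20 mM, and the annotation holds 4 SPCS2 pseudogenes. SPCS3, an accessory subunit needed for cleavage, did not pass, at 0.35 (adjusted p = 0.0558) and 0.18 (adjusted p = 0.284). SPCS1 stood at -0.086 (adjusted p = 0.495) and -0.20 (adjusted p = 0.0942), and 2698 of its exonic bases lie opposite NEK4, with the strand setting of the counting not given.

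Of the 14 COPII genes 4 were higher at 10 mM, 5 at 20 mM and none lower. MIA3 (TANGO1), the exit-site receptor for bulky cargo such as collagen, had 4.96, 5.51 and 5.93 FPKM in the control libraries, 11.7, 8.16 and 9.99 at 10 mM and 9.56, 9.81 and 10.6 at 20 mM. The libraries with 2-DG were all above control, by 0.75 (SE 0.11, adjusted p = 0.000977) at 10 mM and 0.76 (SE 0.11, adjusted p = 0.000637) at 20 mM. PREB (SEC12), the exchange factor that loads SAR1 with GTP, was measured at 25.1, 22 and 20.7 FPKM in the control libraries, 27.4, 30.3 and 27.9 at 10 mM and 33.9, 31.4 and 30.6 at 20 mM. It lay above control in all 6 libraries with 2-DG, by 0.33 (SE 0.078, adjusted p = 0.0113) at 10 mM and 0.49 (SE 0.078, adjusted p = 0.00102) at 20 mM. SEC13, a protein of the outer cage, had 50.2, 44.7 and 43.3 FPKM in the control libraries, 57.1, 61 and 54.1 at 10 mM and 65.2, 65.4 and 63.6 at 20 mM. The groups did not overlap, and SEC13 rose by 0.31 (SE 0.068, adjusted p = 0.00722) at 10 mM and 0.48 (SE 0.068, adjusted p = 0.00044) at 20 mM. TFG, which organises exit sites, was higher by 0.29 (adjusted p = 0.00315) and 0.31 (adjusted p = 0.00158).

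SAR1 is the GTPase that starts the coat, and neither of its genes passed. SAR1A had 19.4, 19.6 and 22.1 FPKM in the control libraries, 19.3, 20.8 and 20.5 at 10 mM and 19.98, 20.4 and 19.8 at 20 mM, with log2 fold changes of -0.007 (SE 0.063, adjusted p = 0.948) at 10 mM and -0.016 (SE 0.063, adjusted p = 0.87) at 20 mM. SAR1B was lower in level, at 3.09, 3.04 and 3.57 FPKM in the control libraries, 3.57, 3.14 and 2.93 at 10 mM and 3.51, 3.39 and 3.14 at 20 mM, with -0.0081 (SE 0.092, adjusted p = 0.958) at 10 mM and 0.04 (SE 0.092, adjusted p = 0.774) at 20 mM. Control and 2-DG libraries overlapped in both genes, and 4 SAR1A pseudogenes are annotated. SEC23A, a GTPase-activating subunit of the inner coat, was measured at 9.03, 11.8 and 11.1 FPKM in the control libraries, 11.7, 6.97 and 9.55 at 10 mM and 9.43, 8.77 and 10.1 at 20 mM. Its libraries overlapped, and the log2 fold changes were -0.18 (SE 0.16, adjusted p = 0.417) at 10 mM and -0.16 (SE 0.16, adjusted p = 0.474) at 20 mM. SEC23B, its paralog, had 48, 47.5 and 46.1 FPKM in the control libraries, 49.9, 46.5 and 47.8 at 10 mM and 53.9, 54.2 and 53.3 at 20 mM. SEC23B overlapped control at 10 mM and lay above it at 20 mM, with 0.025 (SE 0.049, adjusted p = 0.74) at 10 mM and 0.19 (SE 0.049, adjusted p = 0.0141) at 20 mM.

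The SEC24 proteins bind the cargo, and none of their 4 genes passed at either dose. SEC24A was measured at 2.89, 4.02 and 3.61 FPKM in the control libraries, 4.88, 3.10 and 3.91 at 10 mM and 3.97, 3.58 and 4.60 at 20 mM, with 0.13 (SE 0.15, adjusted p = 0.545) at 10 mM and 0.17 (SE 0.15, adjusted p = 0.407) at 20 mM. For SEC24B the values were 6.39, 9.52 and 8.03 FPKM in the control libraries, 10.2, 6.39 and 7.48 at 10 mM and 7.72, 7.33 and 8.44 at 20 mM, with -0.00027 (SE 0.16, adjusted p = 0.999) at 10 mM and -0.012 (SE 0.16, adjusted p = 0.963) at 20 mM. Both overlapped between control and 2-DG. SEC24C had 13.5, 18.2 and 13.7 FPKM in the control libraries, 23.1, 13.3 and 15.6 at 10 mM and 18.3, 17.2 and 18.9 at 20 mM, with 0.16 (SE 0.18, adjusted p = 0.535) at 10 mM and 0.26 (SE 0.18, adjusted p = 0.286) at 20 mM, and 2293 of its exonic bases lie opposite AC022400.8. SEC24D stood at 7.38, 8.69 and 8.14 FPKM in the control libraries, 11, 6.85 and 7.66 at 10 mM and 9.39, 8.80 and 8.99 at 20 mM, with 0.046 (SE 0.14, adjusted p = 0.837) at 10 mM and 0.15 (SE 0.14, adjusted p = 0.423) at 20 mM. The SEC24C libraries overlapped at both doses, and those of SEC24D overlapped at 10 mM but not at 20 mM. SEC31A, the other cage protein, and SEC16A, the exit-site scaffold, did not pass either, with 0.23 (adjusted p = 0.0716) and 0.11 (adjusted p = 0.525) at 20 mM.

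Receptors for cargo and retrieval rose almost throughout, with 8 of 8 higher at 10 mM and 7 of 8 at 20 mM. They took 0.154% ± 0.00440 of the library totals (SD, n = 3) in control, 0.211% ± 0.00729 at 10 mM and 0.214% ± 0.000573 at 20 mM. TMED10, a p24 protein of COPI and COPII vesicles, had 48.4, 51.4 and 51.9 FPKM in the control libraries, 77.5, 72.7 and 76.1 at 10 mM and 79.1, 78 and 78.5 at 20 mM. TMED2, its partner, was measured at 57, 59.5 and 66.9 FPKM in the control libraries, 93.3, 86.9 and 104 at 10 mM and 91.7, 93.7 and 95.8 at 20 mM. Neither gene had a library with 2-DG under a control library. TMED10 rose by 0.57 (SE 0.051, adjusted p = 4.54e-05) at 10 mM and 0.63 (SE 0.051, adjusted p = 1.5e-05) at 20 mM. TMED2 rose by 0.62 (SE 0.079, adjusted p = 0.000351) at 10 mM and 0.61 (SE 0.079, adjusted p = 0.000276) at 20 mM. LMAN2, a lectin that carries glycoproteins (VIP36), had 28, 24.6 and 23.7 FPKM in the control libraries, 32.8, 36 and 33.1 at 10 mM and 37.5, 37.4 and 36 at 20 mM. All 6 libraries with 2-DG lay above all 3 control libraries, and LMAN2 differed from control by 0.41 (SE 0.069, adjusted p = 0.00191) at 10 mM and 0.52 (SE 0.069, adjusted p = 0.000295) at 20 mM. LMAN1 (ERGIC-53), the lectin that exports clotting factors together with MCFD2, was measured at 21, 26.5 and 26.6 FPKM in the control libraries, 39.1, 26.6 and 34.9 at 10 mM and 32.3, 31.4 and 33 at 20 mM. Its libraries with 2-DG lay above control, the second 10 mM library only narrowly, and the log2 fold changes were 0.42 (SE 0.13, adjusted p = 0.0382) at 10 mM and 0.38 (SE 0.13, adjusted p = 0.0463) at 20 mM. MCFD2 was higher by 0.51 (adjusted p = 0.00328) and 0.51 (adjusted p = 0.00235).

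The KDEL receptors return soluble ER proteins that carry a KDEL signal. KDELR1, the highest of the 3 in FPKM, was measured at 123, 110.4 and 112 FPKM in the control libraries, 136, 149 and 140.2 at 10 mM and 149.6, 147 and 146 at 20 mM. KDELR2 had 45, 43 and 50.6 FPKM in the control libraries, 51.4, 55.7 and 56.3 at 10 mM and 51.5, 53.4 and 50.2 at 20 mM. KDELR3 was the lowest, at 11.7, 11.4 and 12.3 FPKM in the control libraries, 18.1, 16.2 and 17.6 at 10 mM and 14.3, 18.3 and 16.6 at 20 mM. KDELR1 and KDELR3 did not overlap with control at either dose, whereas KDELR2 overlapped at 20 mM. KDELR1 rose by 0.30 (SE 0.062, adjusted p = 0.00576) at 10 mM and 0.35 (SE 0.062, adjusted p = 0.00165) at 20 mM. KDELR2 rose by 0.24 (SE 0.069, adjusted p = 0.028) at 10 mM and did not pass at 20 mM, with 0.16 (SE 0.069, adjusted p = 0.0921). KDELR3, whose promoter holds CCACGTCA, rose by 0.51 (SE 0.087, adjusted p = 0.00189) at 10 mM and 0.44 (SE 0.087, adjusted p = 0.00351) at 20 mM.

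Of the 6 coatomer genes of the COPI coat 2 were higher at each dose. COPE, the epsilon subunit, had 58.6, 52.2 and 49.3 FPKM in the control libraries, 64.5, 86.7 and 63.5 at 10 mM and 78.3, 74.8 and 74.5 at 20 mM. COPG1, a gamma subunit, was measured at 60.1, 61.8 and 56.1 FPKM in the control libraries, 78.4, 72 and 66.3 at 10 mM and 79.9, 80.5 and 77 at 20 mM. In both genes the libraries with 2-DG lay above control. COPE rose by 0.41 (SE 0.11, adjusted p = 0.0228) at 10 mM and 0.503 (SE 0.11, adjusted p = 0.00647) at 20 mM. COPG1 rose by 0.28 (SE 0.069, adjusted p = 0.0136) at 10 mM and 0.41 (SE 0.069, adjusted p = 0.00129) at 20 mM. COPA, COPB1, COPB2 and ARCN1 did not pass, with log2 fold changes at 20 mM of 0.27, 0.049, 0.16 and 0.21 and adjusted p of 0.0904, 0.555, 0.211 and 0.109. Of the SNAREs, which fuse vesicles with their target, BET1 passed at 10 mM with 0.38 (adjusted p = 0.0487) but not at 20 mM with 0.33 (adjusted p = 0.0717). SEC22B did not pass, with 0.13 (adjusted p = 0.268) and 0.14 (adjusted p = 0.195).

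**Figure D3:**
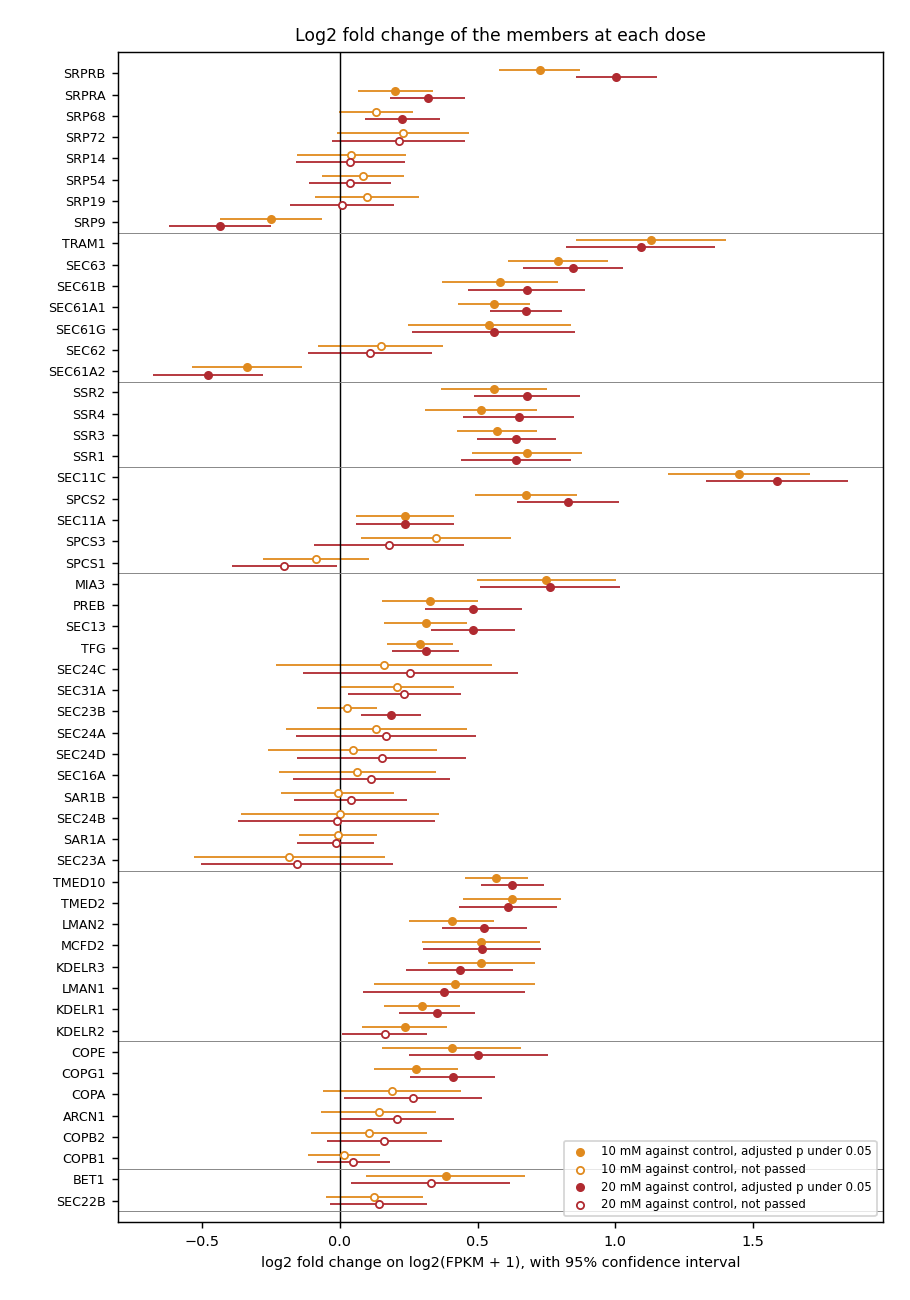
Log2 fold change of each member on log2(FPKM + 1) (horizontal axis) with its 95% confidence interval, at 10 mM (orange) and 20 mM (red) against the 3 control libraries, ordered by role and by the value at 20 mM. Filled points have an adjusted p under 0.05, which 31 members have at each dose.

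Some of these calls lay near the threshold and were lost under other settings. Of the 31 calls at 10 mM, 21 held in each of 18 other fits, and of the 31 at 20 mM, 27 did. At 10 mM, SRP9 kept its call in 6 of the 18, SEC11A in 7, LMAN1 in 7, BET1 in 9, SRPRA in 10, KDELR2 in 12, COPE in 14, SEC61A2 in 16, SEC61G in 17 and COPG1 in 17. With each of the 9 libraries left out in turn, the adjusted p at 10 mM ran from 0.0211 to 0.139 for SRP9, from 0.0058 to 0.148 for SEC11A, from 0.00308 to 0.126 for LMAN1 and from 0.0149 to 0.15 for BET1. It ran from 0.0326 to 0.108 for SRPRA and from 0.0104 to 0.101 for KDELR2. The log2 fold changes kept their direction, and moved by over 1.5 times for SRP9, which stood at -0.16 without the third control library, and for COPE, at 0.26 without the second 10 mM library. SRP9 kept its call only without the second control or the second 10 mM library, SEC11A only without the first 10 mM library, LMAN1 only without the second 10 mM library, and BET1 only without the third control or the first 10 mM library. SRPRA lost its call without any control library, the first 10 mM library or the second or the third 20 mM library, and KDELR2 without the first or second control or the second or the third 10 mM library. COPE lost it without the second or the third control library, with adjusted p up to 0.0806, SEC61A2 without the third control or the third 10 mM library, up to 0.064, and COPG1 without the third control library, at 0.0516. At 20 mM, LMAN1 kept its call in 9 of the 18 fits, SEC11A in 10, SRP68 in 15 and SEC23B in 16. Their adjusted p with 1 library left out ran from 0.00893 to 0.152 for LMAN1, from 0.00972 to 0.131 for SEC11A, from 0.0144 to 0.0663 for SRP68 and from 0.00925 to 0.0577 for SEC23B. The log2 fold change then ran from 0.27 to 0.43 for LMAN1 and from 0.20 to 0.27 for SEC11A. SEC11A and LMAN1 lost the call without any 1 control or 20 mM library, LMAN1 also without the third 10 mM library, SRP68 without the second control or the first or second 20 mM library, and SEC23B without the first or second 20 mM library.

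Within the groups the libraries differed along gene length. Across the 54 members, Spearman's rho between a library's deviation from its group mean and gene length was -0.47 and 0.46 in the first and second control libraries and 0.42 and -0.47 in the first and second 10 mM libraries. It lay between -0.19 and 0.27 in the 20 mM libraries. With each library's trend on gene length subtracted, an alternative chosen after seeing the data, 31 members were higher and 2 lower at 10 mM, and 33 higher and 2 lower at 20 mM. In that fit 14.7% of all genes tested were higher and 16.8% lower at 10 mM, and 18.7% and 20.4% at 20 mM.

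The doses were then set against each other. In limma, 0 of the 54 members differed between 20 mM and 10 mM at an adjusted p under 0.05, as did 0% of all genes tested, and limma-voom on recovered reads also called 0 of the 54. At an unadjusted p under 0.05, 3 members were higher at 20 mM and 1 was lower, against 2.75% and 4.13% of all genes tested. SRPRB was higher at 20 mM than at 10 mM by 0.28 (SE 0.066, unadjusted p = 0.00178, adjusted p = 0.316) on the log2 scale. SEC13 stood at 0.17 (SE 0.068, unadjusted p = 0.0296, adjusted p = 0.669), and SEC23B at 0.16 (SE 0.049, unadjusted p = 0.00849, adjusted p = 0.48). SRP9 was lower at 20 mM, at -0.19 (SE 0.083, unadjusted p = 0.048, adjusted p = 0.721). None of the 4 passed the correction. The libraries of the 2 doses did not overlap for these 4, nor for SEC61A1, SPCS2, PREB and TMED10, so that 7 members lay wholly higher at 20 mM and 1 wholly lower, against 4.71% and 7.14% of all genes tested. Side by side, 27 members were called higher and 2 lower at both doses, and 21 were called at neither. BET1 and KDELR2 were called at 10 mM alone, and SRP68 and SEC23B at 20 mM alone. The share of all genes tested that were called alike at both doses was not computed, so these counts stand without a background. Both comparisons also share the control libraries.

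Related members were compared within each library by the log2 ratio of their FPKM values, which does not depend on the scaling of a library. The 3 control libraries were set against the 6 libraries with 2-DG in a two-sided exact permutation test, whose smallest possible p is 0.0238, for 11 pairs. The log2 ratio of SEC61A1 over SEC61A2 was 5.01, 4.96 and 4.72 in the control libraries, 5.87, 5.99 and 5.89 at 10 mM and 6.09, 6.33 and 6.31 at 20 mM. It was higher with 2-DG by 1.18 on the log2 scale, in 6 of 6 libraries. With SEC61A1 above and SEC61A2 below every control library, this separation follows from the values given earlier and is no further support. SEC11A over SEC11C turned from 0.79, 0.92 and 0.83 in the control libraries to -0.40, -0.44 and -0.59 at 10 mM and -0.59, -0.74 and -0.54 at 20 mM. SEC11A was thus the higher of the pair in control and SEC11C in 6 of 6 libraries with 2-DG, a difference in log2 ratio of -1.40. SEC24A over SEC24B was -1.15, -1.24 and -1.16 in the control libraries, -1.06, -1.05 and -0.94 at 10 mM and -0.96, -1.03 and -0.88 at 20 mM, a difference of 0.20. KDELR2 over KDELR3 was 1.94, 1.92 and 2.03 in the control libraries, 1.503, 1.78 and 1.68 at 10 mM and 1.85, 1.55 and 1.59 at 20 mM, a difference of -0.31. In these 4 pairs the control and 2-DG libraries did not overlap, with an exact permutation p of 0.0238 each, the smallest the design allows. After Benjamini-Hochberg adjustment over the 11 pairs it was 0.0655, so none passed the correction. The share of other gene pairs that separate in this way was not computed. The trend on gene length was not subtracted from these ratios, and the genes of a pair can differ in length. The other 7 pairs overlapped, with differences between -0.29 for SEC23A over SEC23B and 0.12 for KDELR1 over KDELR2 and exact permutation p between 0.119 and 0.881.

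**Figure D4:**
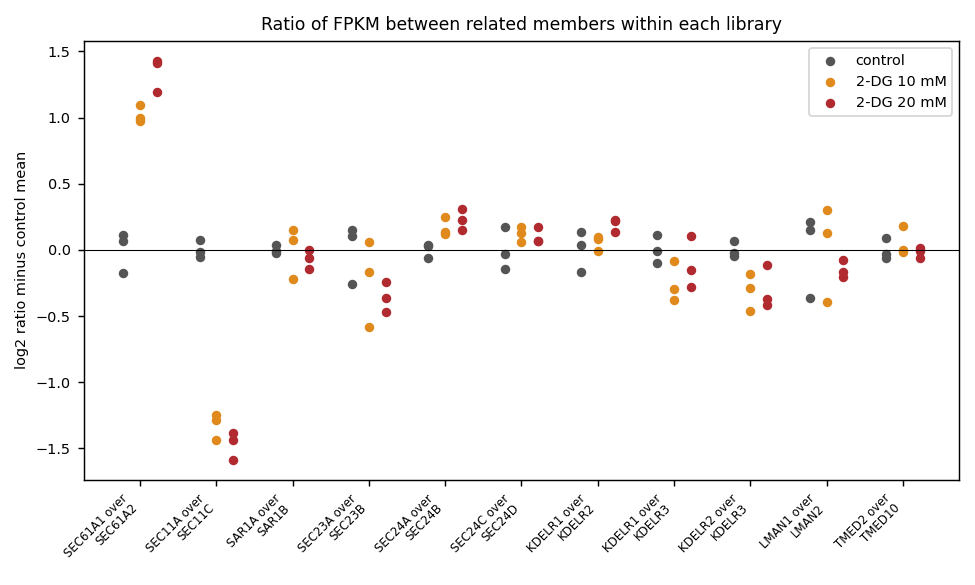
Log2 ratio of FPKM between related members in each library, minus the mean of the 3 control libraries (grey), at 10 mM (orange) and 20 mM (red) 2-DG. SEC61A1 over SEC61A2 lies above control and SEC11A over SEC11C below it in all 6 libraries with 2-DG.

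Other genes of the same pathways were taken from lists and read at 20 mM, beside the 15.4% of all genes tested that were higher and the 21.6% that were lower. Of 10 multipass translocon and translocon partner genes 3 were higher and none lower at 20 mM, with a median log2 fold change of 0.21. HM13, the signal peptide peptidase that cuts the freed signal peptides, had 62 ± 3.67 FPKM (SD, n = 3) in control and 133 ± 3.89 at 20 mM (log2 fold change 1.09, adjusted p = 2.38e-06). SIL1, the exchange factor of BiP, had 13.5 ± 0.521 FPKM (SD, n = 3) in control and 18.9 ± 1.06 at 20 mM (log2 fold change 0.46, adjusted p = 0.00539). Of 6 other p24 genes 4 were higher and none lower, with a median log2 fold change of 0.38. TMED9 had 95.8 ± 6.92 FPKM (SD, n = 3) in control and 199.9 ± 11 at 20 mM (log2 fold change 1.05, adjusted p = 1.66e-05), and TMED7 10.5 ± 2.06 FPKM (SD, n = 3) in control and 16.1 ± 0.333 at 20 mM (log2 fold change 0.59, adjusted p = 0.00664). Of 15 other COPII and exit-site genes tested 5 were higher and 1 lower, with a median log2 fold change of 0.028. MIA2, the exit-site partner of MIA3, had 2.37 ± 0.371 FPKM (SD, n = 3) in control and 4.34 ± 0.215 at 20 mM (log2 fold change 0.67, adjusted p = 0.000553), and SURF4, a cargo receptor, 153 ± 6.29 FPKM (SD, n = 3) in control and 208 ± 6.02 at 20 mM (log2 fold change 0.44, adjusted p = 0.000451).

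Insertion routes beside the Sec61 channel and later transport steps were listed likewise. Of 10 genes of the ER membrane complex, an insertase, 2 were higher and none lower, with a median log2 fold change of -0.095. EMC3 had 20.6 ± 1.48 FPKM (SD, n = 3) in control and 25.9 ± 1.72 at 20 mM (log2 fold change 0.32, adjusted p = 0.0149), and EMC7 38.9 ± 2.83 FPKM (SD, n = 3) in control and 45.2 ± 0.0567 at 20 mM (log2 fold change 0.21, adjusted p = 0.035). Of 7 genes that insert tail-anchored proteins 2 were higher and none lower, with a median log2 fold change of 0.10. CAMLG had 4.39 ± 0.418 FPKM (SD, n = 3) in control and 5.72 ± 0.149 at 20 mM (log2 fold change 0.32, adjusted p = 0.0136), and GET3 111 ± 11 FPKM (SD, n = 3) in control and 134 ± 3.26 at 20 mM (log2 fold change 0.28, adjusted p = 0.03). Of 23 genes of ER-Golgi tethering and fusion 7 were higher and 2 lower, with a median log2 fold change of 0.10. USE1, a SNARE of retrograde transport, had 5.13 ± 0.396 FPKM (SD, n = 3) in control and 10.9 ± 0.249 at 20 mM (log2 fold change 0.96, adjusted p = 4.15e-05), and SCFD1, a Sec1-like regulator of fusion, 1.63 ± 0.196 FPKM (SD, n = 3) in control and 2.66 ± 0.0486 at 20 mM (log2 fold change 0.48, adjusted p = 0.00303). Of 12 other COPI and ARF genes 2 were higher and 6 lower, with a median log2 fold change of -0.25. ARF4, a GTPase of the early Golgi, had 118 ± 9.28 FPKM (SD, n = 3) in control and 160.5 ± 4.32 at 20 mM (log2 fold change 0.44, adjusted p = 0.000733), and ARFGAP2, which helps uncoat COPI vesicles, 10.1 ± 0.469 FPKM (SD, n = 3) in control and 7.15 ± 0.282 at 20 mM (log2 fold change -0.44, adjusted p = 0.00121).

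Transport later than the Golgi and import into mitochondria were listed for comparison. Of 28 genes of post-Golgi coats, the exocyst and retromer 2 were higher and 8 lower at 20 mM, with a median log2 fold change of -0.074. EXOC4 had 6.40 ± 0.350 FPKM (SD, n = 3) in control and 3.87 ± 0.173 at 20 mM (log2 fold change -0.60, adjusted p = 0.00126), and AP1B1 20.1 ± 0.308 FPKM (SD, n = 3) in control and 13.6 ± 0.555 at 20 mM (log2 fold change -0.53, adjusted p = 5.96e-05). Of 20 mitochondrial import genes 2 were higher and 7 lower, with a median log2 fold change of -0.21. TIMM44 had 16.2 ± 0.437 FPKM (SD, n = 3) in control and 23.7 ± 0.790 at 20 mM (log2 fold change 0.52, adjusted p = 0.000112), and TOMM5 1.91 ± 0.137 FPKM (SD, n = 3) in control and 1.15 ± 0.210 at 20 mM (log2 fold change -0.44, adjusted p = 0.0101). At 10 mM, 2 were higher and 7 lower of the 28, and 2 were higher and 6 lower of the 20. Of all genes tested, 12.1% were higher and 17.5% lower at that dose. The differences between the lists were not tested.

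**Figure D5:**
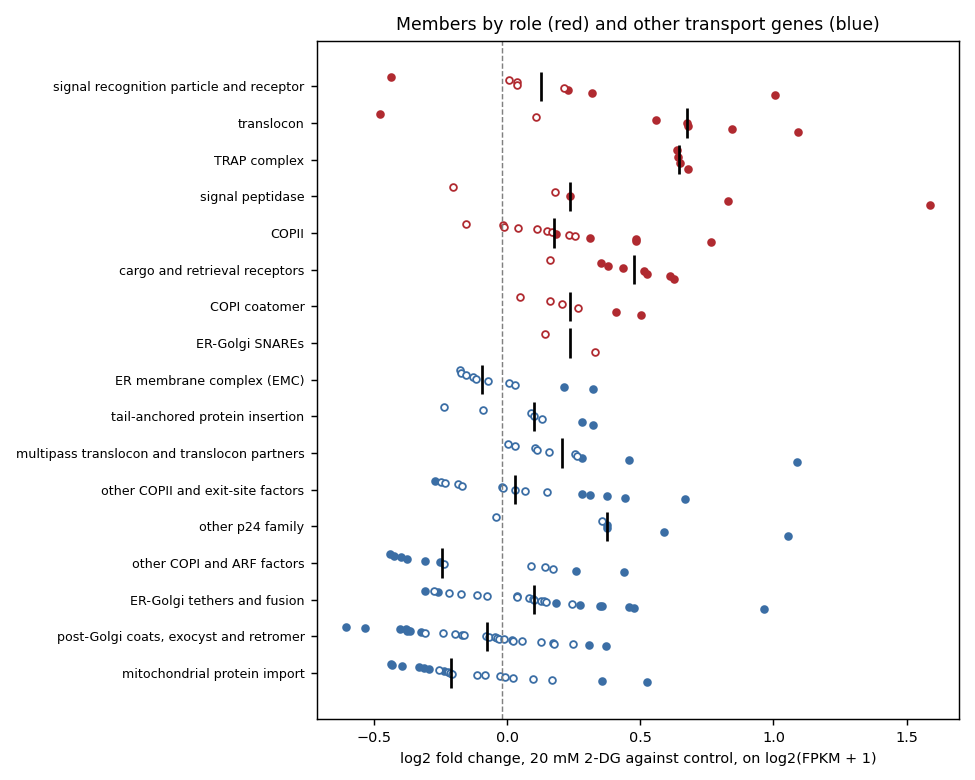
Log2 fold change at 20 mM 2-DG against control on log2(FPKM + 1) (horizontal axis) of the members by role (red) and of the other listed genes (blue), 1 point per gene, filled where the adjusted p is under 0.05, with the list median as a bar. The dashed line is the median of all genes tested, -0.021, and the translocon and TRAP medians are 0.68 and 0.64.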

How the data were processed

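RNA-seq of 9 MDA-MB-231 libraries was used, 3 each for control, 10 mM and 20 mM 2-DG, grouped by their labels. The authors deposited FPKM values per gene, 1 file per library, and the submitters' processing notes name the build GRCh38 (hg38). The aligner, counter, annotation and strand setting are not given in the sources used here. Overlaps and pseudogenes are named above for some members only. On its own strand KDELR2 shares 376 exonic bases with DAGLB, COPE 264 with AC002985.1 and SRPRB 112 with TF. Others lie opposite another gene, among them SEC61A1 (344 bases, RUVBL1) and MIA3 (404 bases, AL592148.3). SEC63, TMED10 and SSR1 have 2 annotated pseudogenes each. Each value came out as whole reads (tolerance 0.002 reads) for 32804 of 32806 genes above 0, with lengths from GENCODE release 29 for 16144 genes and searched lengths for 16660. These reads made up 99.77% to 99.85% of the library totals (30974968 to 40843638) and served the filter, a minimum of 10 reads, scaled to the median depth, in 3 libraries and of 15 reads in all, and limma-voom.

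limma 3.58.1 (R 4.3.3; lmFit, eBayes with trend) was fitted to log2(FPKM + 1) of 16569 genes in all 9 libraries, without a replicate block, two-sided, with Benjamini-Hochberg adjustment over all genes tested. Count tests such as the DESeq2 of the study were not used. Permutation tests used scipy 1.17.1. The fit was tried on simulated counts that lacked the differences along gene length seen between these libraries. The permutation test was checked on a set of fixed numbers only. Members named in full were the 3 called members with the largest change at 20 mM per role, every lower member and every gene of the paralog pairs, and of each other list the 2 called genes with the largest change at 20 mM. The members and lists were chosen with earlier results of these data known. Replicates differed by more than sampling noise, and none was merged. The alternatives were 18 other fits and 2 other thresholds, 0.1 FPKM added in the paralog ratios, and a shorter promoter window.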

Additional observations from a re-analysis of the deposited data

How the results depend on the processing

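Every member called higher or lower at 10 mM or 20 mM kept its direction in the 18 other fits. The number called higher lay between 22 and 32 at 10 mM and between 25 and 36 at 20 mM. The count over all genes moved too. With limma-voom on median-ratio factors, 2481 genes were higher at 10 mM and 3124 at 20 mM, against 2010 and 2544 in the reported fit. Shares of all genes are not given for the fits with 1 library left out or with the replicate block. The member counts of those fits therefore stand without a background. Stricter calls cut these numbers. With an adjusted p under 0.05 and a fold change over 1.5, 8 were higher and 0 lower at 10 mM, against 2.81% and 4.54% of all genes tested. At 20 mM they were 14 and 0, against 4.02% and 6.61%. Under the study's DEG rule they were 2 and 0 at 10 mM, against 0.579% and 1.16%, and 3 and 0 at 20 mM, against 0.966% and 1.96%. The members lower at 10 mM fell from 2 to 1 (SRP9 lost its call) with median-ratio scaling, with all 32806 genes above 0, with limma-voom on median-ratio factors, with only the 2 groups compared and with the replicate block. With 1 library left out in turn, 23 to 29 were higher and 0 to 2 lower at 10 mM, and 25 to 33 higher and 2 to 3 lower at 20 mM; the lower count was 0 without the third control or the third 10 mM library. A lone group of 2 libraries was taken to vary like the others. The cause of these shifts was not tested. In 20 mM against 10 mM, 0 members were called under any alternative. In the paralog ratios, which set control against 2-DG libraries, 4 to 5 pairs were separated under the alternatives.

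Deviations from the group mean correlated between -0.41 and 0.29 across genes in same-numbered libraries. In differently numbered libraries they reached 0.52, between the first control and the second 10 mM library. The deviations are centred within each group and follow gene length. These values therefore cannot decide whether libraries of equal number were handled together. With the replicate block 28 members were higher and 1 lower at 10 mM, and 27 and 2 at 20 mM.

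The fold changes that turned direction belonged to members called neither in the reported fit nor in the other. With median-ratio scaling the log2 fold change at 10 mM became 0.029 for SAR1A, 0.021 for SAR1B and 0.033 for SEC24B, and at 20 mM 0.037 for SAR1A and 0.038 for SEC24B. With limma-voom on median-ratio factors it became 0.031 for SAR1A, 0.029 for SAR1B and 0.030 for SEC24B at 10 mM, and 0.039 for SAR1A and 0.039 for SEC24B at 20 mM. With the gene-length trend subtracted it became 0.015 for SAR1A and 0.028 for SEC24B at 10 mM, and 0.016 and 0.023 at 20 mM. With 1 library left out, the values at 10 mM ran from -0.040 to 0.050 for SAR1A, -0.068 to 0.048 for SAR1B, -0.0020 to 0.048 for SEC23B, -0.17 to 0.13 for SEC24B, -0.056 to 0.32 for SEC24C, -0.13 to 0.17 for SEC24D, -0.037 to 0.15 for SRP14, -0.091 to 0.18 for SEC16A and -0.028 to 0.049 for COPB1, and at 20 mM from -0.049 to 0.041 for SAR1A, -0.14 to 0.11 for SEC24B, -0.025 to 0.054 for SRP19 and -0.0065 to 0.18 for SEC62. SEC23B was called at 20 mM only.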
